A study of Mus musculus with 7 samples.

Results

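The genes described here encode proteins that a cell needs in G2 and mitosis. They comprise 41 symbols of a list drawn up by function: cyclins, spindle kinases, kinetochore proteins, kinesins, and proteins of cytokinesis and chromosome separation. Of the 41, 35 had a row among the 18138 gene symbols of the array table, with 54 of its 25697 probes. A probe detected above background on at least 3 arrays was found for 32 genes (47 probes), which were tested among 10484 genes. Ccnb2 and Nek2 were on the array but were detected on 0 arrays, and Pttg1 was detected on 2, so these 3 genes were not tested. No row carried the symbols Cenpf, Kif20a, Racgap1, Aurkb, Kif20b or Nuf2. The older symbol of Nuf2, Cdca1, does have a row, which was detected on 2 arrays and was not tested.

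Total RNA came from labial cervical loops, the dental epithelial pouches at the base of the mouse incisor in which stem cells feed a tooth that grows throughout life. Control mice (Yap/Taz f/f, 3 arrays) carried loxP-flanked alleles of both genes and no Cre, and mutant mice (K14CreER;Yap/Taz f/f, 4 arrays) carried in addition a tamoxifen-dependent Cre driven by the keratin 14 promoter. All animals were 8 weeks old, received 5 mg of tamoxifen on 2 successive days, controls included, and were sampled 48 hours after the later dose. Effects of Cre and of losing Yap and Taz therefore cannot be told apart, and cells in which the keratin 14 promoter is silent should keep both genes. The 7 arrays lay on 2 BeadChips. The first chip held control replicates 1 and 2 and mutant replicates 1 and 2, and the second held control replicate 3 and mutant replicates 3 and 4, so that every difference on the second chip rests on 1 control array. Keratin markers of the tissue were bright on all arrays, with Krt14 at a mean normalised log2 intensity of 9.95 and Krt5 at 9.88 in each genotype.

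A dividing cell enters mitosis when Cdk1, bound to cyclin A or cyclin B, is switched on. Aurora and Polo-like kinases then build the spindle, the kinetochore checkpoint delays anaphase until chromosomes are attached, and the anaphase-promoting complex with Cdc20 destroys cyclin B and securin. Most of these genes are transcribed together late in the cell cycle, under the MuvB complex, B-Myb and Foxm1, through a short promoter element called the cell cycle homology region, often beside CCAAT boxes that bind NF-Y. Yap and Taz are co-activators that bind DNA through Tead factors, and in human cell lines Yap has been linked to mitotic genes through B-Myb and MuvB. In the incisor, the transit-amplifying cells next to the stem cells are the main dividing epithelial population.

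The promoters of the members carried that element often. RefSeq promoter windows of GRCm38.p6, each of 300 bases from 250 before to 50 after an annotated transcript start, were matched to 35 of the 41 members, in 37 windows. Ccna2, Cdc25c, Aurkb, Incenp, Kif20a and Tpx2 had no entry. The letters TTTGAA or TTCGAA, read on either strand as the cell cycle homology region, occurred in the windows of 26 members and in 75.7% of the 37 windows, against 19.2% of all 32851 windows of the table. Within 50 bases on either side of the start the shares were 73% and 5.31%. A CCAAT box (CCAAT on either strand; matches of different motifs may overlap) also occurred in 75.7% of member windows, against 37.4% of all windows, and 22 members held both elements. A Tead motif (GGAATG on either strand) was present in 13.5% of member windows and 14.7% of all windows, in Nek2, Mad2l1, Nusap1, Racgap1 and Ube2c. These are matches of letters and do not show that a factor was bound. The stretch from 120 bases before to 50 after the start is printed below, 5′ to 3′ on the gene's own strand, for the 7 members that lay lowest in the mutant by the unadjusted test and for the 3 whose difference was above 0, because the 2 sets can be set side by side. Capitals mark the cell cycle homology region.
Aurka (chr2:172370521-172370690, minus strand): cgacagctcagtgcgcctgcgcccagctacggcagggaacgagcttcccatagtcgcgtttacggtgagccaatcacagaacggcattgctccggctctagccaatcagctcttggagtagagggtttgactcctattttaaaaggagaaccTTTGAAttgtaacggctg
Plk1 (chr7:122159315-122159484, plus strand): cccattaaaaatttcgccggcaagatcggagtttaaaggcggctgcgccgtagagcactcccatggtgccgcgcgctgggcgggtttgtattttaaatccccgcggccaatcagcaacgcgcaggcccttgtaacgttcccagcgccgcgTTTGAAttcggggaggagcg
Birc5 (chr11:117849117-117849286, plus strand): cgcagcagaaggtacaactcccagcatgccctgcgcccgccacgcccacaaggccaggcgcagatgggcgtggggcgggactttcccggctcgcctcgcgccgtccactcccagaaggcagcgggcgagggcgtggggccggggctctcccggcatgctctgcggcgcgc
Kif11 (chr19:37376262-37376431, plus strand): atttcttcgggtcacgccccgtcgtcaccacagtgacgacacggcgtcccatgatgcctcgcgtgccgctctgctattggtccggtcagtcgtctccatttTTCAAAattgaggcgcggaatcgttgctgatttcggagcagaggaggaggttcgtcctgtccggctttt
Kif2c (chr4:117178723-117178892, minus strand): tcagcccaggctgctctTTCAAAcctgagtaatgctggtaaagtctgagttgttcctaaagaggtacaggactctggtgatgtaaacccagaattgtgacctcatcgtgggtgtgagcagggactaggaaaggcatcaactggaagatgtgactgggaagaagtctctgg
Kif22 (chr7:127042371-127042540, minus strand): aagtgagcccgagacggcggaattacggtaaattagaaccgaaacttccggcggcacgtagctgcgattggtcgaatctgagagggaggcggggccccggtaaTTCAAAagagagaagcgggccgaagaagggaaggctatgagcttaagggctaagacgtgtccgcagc
Cenpe (chr3:135212443-135212612, plus strand): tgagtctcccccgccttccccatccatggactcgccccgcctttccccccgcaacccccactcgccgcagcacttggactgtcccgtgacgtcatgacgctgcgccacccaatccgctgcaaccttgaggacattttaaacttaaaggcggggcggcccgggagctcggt
Anln (chr9:22389157-22389326, minus strand): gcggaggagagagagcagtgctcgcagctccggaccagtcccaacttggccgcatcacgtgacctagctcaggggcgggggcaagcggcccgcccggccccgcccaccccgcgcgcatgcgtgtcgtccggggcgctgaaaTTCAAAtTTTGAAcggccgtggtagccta
Ect2 (chr3:27153829-27153998, minus strand): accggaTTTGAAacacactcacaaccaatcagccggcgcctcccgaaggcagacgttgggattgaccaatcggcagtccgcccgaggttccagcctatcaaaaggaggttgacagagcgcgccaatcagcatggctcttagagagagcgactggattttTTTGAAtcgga
Prc1 (chr7:80294331-80294500, plus strand): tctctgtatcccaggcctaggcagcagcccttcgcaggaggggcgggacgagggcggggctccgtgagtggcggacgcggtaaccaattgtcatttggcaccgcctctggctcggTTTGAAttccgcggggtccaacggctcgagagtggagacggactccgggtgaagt
The element lay near the start in 5 of the first set (Aurka, Kif11, Anln, Ect2 and Prc1) and in Plk1 and Kif22 of the second. In Kif2c the nearest match began at -103 bases from the start, and the windows of Birc5 and Cenpe held no match to these letters. The 2 sets, of 7 and 3 members, were chosen by these differences, and most members carry the element. These counts therefore cannot tell whether presence of the element goes with the difference.

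**Figure D1:**
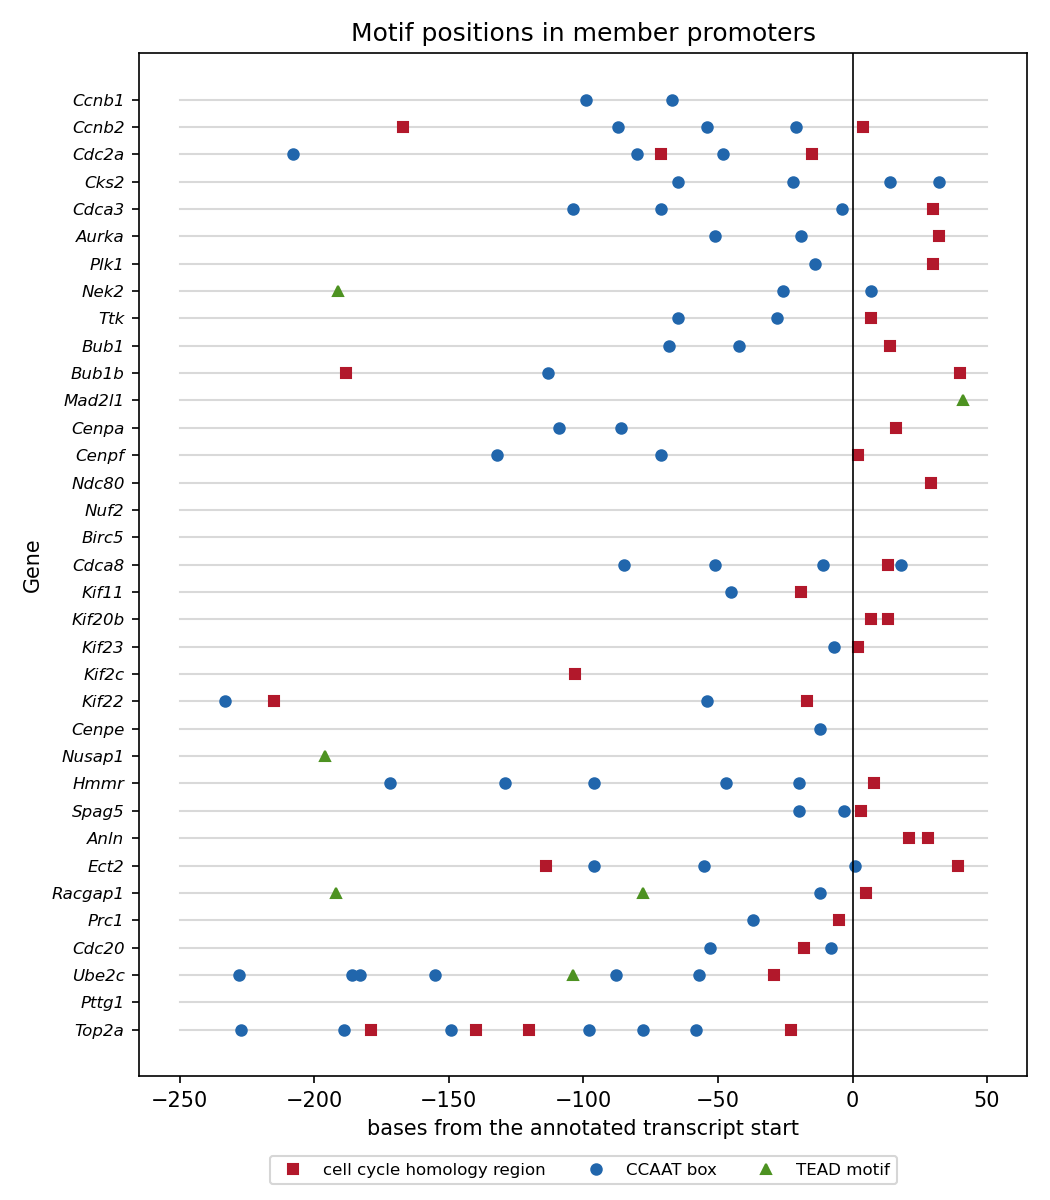
Position of each motif match (x axis, bases from the annotated transcript start, at 0) in the first promoter window of the 35 members with an entry (y axis). Red squares are cell cycle homology regions, blue circles CCAAT boxes and green triangles Tead motifs, and the red squares gather around the start in most genes.

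Across the array, each array detected 13767 to 14752 probes with a median of 31 to 38 beads, and tested member probes were averaged over 18 to 55 beads. Levels are normalised log2 intensities, and a difference is the mutant level minus the control level in a limma fit that accounts for the chip, over 14666 probes. The number of arrays limits the precision, and as no label states that samples were from different animals, p-values reflect the spread among these samples alone. Yap1, the targeted gene with a call, fell by 0.67 on the log2 scale in the mutant (SE 0.12, limma adjusted p = 0.0445). That call depended on the processing. Over the array 0 probes, and so not Yap1, were called lower without background correction, with an offset of 50 or with median scaling. The same held without the detection filter and on leaving out any 1 array other than control replicate 1. Wwtr1, which encodes Taz, differed by -0.15 (limma adjusted p = 0.819) on a dim probe, with means of 4.75 in controls and 4.61 in mutants beside a median of 5.49 for all tested probes.

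No G2 and mitosis gene passed limma's test after Benjamini-Hochberg adjustment over all probes: 0 of 32 were called lower and 0 called higher, where 0.0382% of all tested genes were called in each direction (0.0273% of probes lower and 0.0341% higher). The smallest adjusted p among the members was 0.375. An unadjusted p under 0.05 was found for 7 members on the lower side and 0 on the higher, against 3.71% and 4.51% of all tested genes. The differences of 29 of the 32 members were below 0, against 50% of all tested genes, with a median of -0.14 beside -0.00033 for all tested genes and a range of -0.57 to 0.14. That median depended on the processing: it was -0.063 without background correction, -0.076 with an offset of 50, -0.062 in the series matrix values and, with median scaling, -0.047 beside 0.074 for all genes. Counted over probes, 37 of the 47 were below 0. All 4 mutant arrays lay below all 3 control arrays for 3 members, Birc5, Kif11 and Cdc20, while 3.23% of all tested genes did so. No member lay above all controls in this way, where 3.25% of all genes did. In bulk tissue, fewer dividing cells and less of each transcript per dividing cell cannot be told apart.

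The level of the members varied among the mutant arrays. The mean level over the 32 members was 6.18, 6.29 and 6.31 on control replicates 1 to 3, or 6.26 ± 0.071 (SD, n = 3). On mutant replicates 1 to 4 it was 6.19, 6.07, 6.29 and 5.86, or 6.10 ± 0.19 (SD, n = 4). Mutant replicates 2 and 4 lay below every control, while replicates 1 and 3 lay among them. Set against the control mean of the same chip, the 4 mutant arrays lay at -0.042, -0.17, -0.020 and -0.46, with 15, 29, 18 and 31 of the 32 members below it. Mutant replicate 4 was the lowest of the 7 arrays for 23 members, although it was the lowest for 15.3% of all tested genes. Mutant replicate 3, on the same chip, was the lowest for 0 members (10.6% of all tested genes) and the highest for 7 (11.2%). Control replicate 2 was likewise the lowest for 0 members (13.2%) and the highest for 8 (13.1%). Without mutant replicate 4, 23 of 32 members remained below 0 (50.6% of all genes) and the median was -0.049. In that fit 2 of 32 members were lower at an unadjusted p under 0.05, beside 3.58% of all tested genes.

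**Figure D2:**
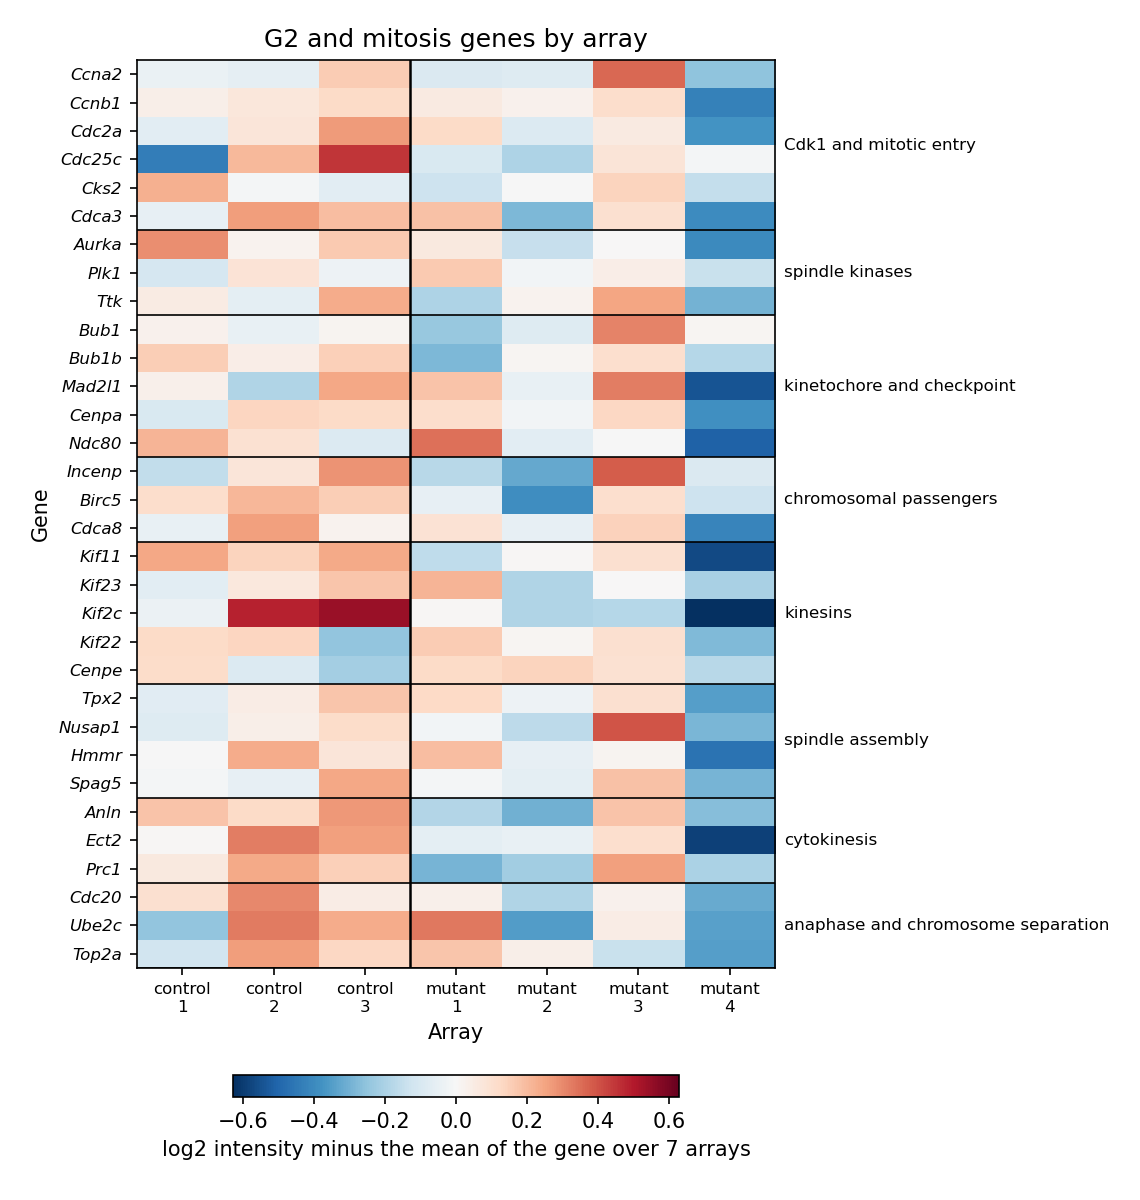
Level of each tested member (y axis, grouped by role) on each of the 7 arrays (x axis), as normalised log2 intensity minus the gene's own mean over the 7 arrays. Blue is below and red above that mean, the vertical line separates the 3 control from the 4 mutant arrays, and the column of mutant replicate 4 is below the mean for 31 of the 32 genes.

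Other markers moved with the arrays as well. Relative to the control mean of the same chip, the 3 tested ameloblast markers of 7 lay at 0.64, 0.13, 1.17 and 1.81 on mutant replicates 1 to 4. The 9 tested odontoblast and osteoblast markers lay at 0.53, -0.13, 0.65 and 0.84. The 12 tested macrophage and leukocyte markers lay at 0.17, 0.040, 0.25 and 0.47. These are means over each list. Thus mutant replicate 4, lowest for the mitotic genes, had the highest mean for all 3 of these marker lists. Single odontoblast and osteoblast markers varied: on the second chip their differences ran from -0.22 for Sp7 to 2.72 for Bglap2, with Col1a2 at 0.066. The 6 tested mesenchyme markers lay at 0.34, 0.11, 0.25 and 0.37, and the 9 tested epithelium markers at 0.11, 0.072, 0.014 and -0.0019. The 3 tested Schwann cell and nerve markers lay at 0.27, 0.48, 0.045 and 0.27. The 2 tested endothelium markers lay at 0.051, 0.17, 0.015 and 0.059, and the 2 tested red blood cell markers at -0.48, -0.47, 0.60 and 0.26. The epithelium, Schwann cell, endothelium and red blood cell lists were thus not highest on mutant replicate 4. Yap1 stood at 6.63, 6.36, 6.62 and 6.97 on the same 4 arrays, so that the array with the lowest mitotic level kept the highest Yap1 level of the mutants. The part of these markers in the result was not tested.

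The Cdk1 group starts mitosis. All 6 tested genes of it lay below 0, with a median difference of -0.14, 0 called, and 0 with an unadjusted p under 0.05. Ccnb1, cyclin B1, stood at 5.88, 5.92 and 5.97 on the control arrays and at 5.90, 5.87, 5.95 and 5.42 on the mutant arrays. Mutant replicates 1 to 3 were close to the controls and mutant replicate 4 lay apart. The Ccnb1 difference on this brighter probe was -0.12 (SE 0.13, limma adjusted p = 0.852). On its second tested probe the controls spread more widely, from 5.10 to 5.80. There mutant replicate 4 stood at 4.89 and the difference was -0.21. Ccna2, cyclin A2, was 6.51, 6.49 and 6.71 in controls and 6.46, 6.47, 6.91 and 6.30 in mutants, a difference of -0.064 (limma adjusted p = 0.930), and mutant replicate 3 was the highest of the 7 arrays. Cdc2a, the older symbol of Cdk1 itself, was 6.0, 6.15 and 6.34 against 6.19, 5.98, 6.13 and 5.70. Its brighter probe differed by -0.16 (limma adjusted p = 0.789) and its second tested probe by 0.052.

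Cdc25c, the phosphatase that activates Cdk1, ranged from 4.99 on control replicate 1 to 5.88 on control replicate 3, and the 4 mutant arrays, at 5.34, 5.23, 5.51 and 5.42, lay between them. The groups overlapped only through control replicate 1. Its 3 tested probes differed by -0.18, -0.27 and 0.031, and on the probe at -0.27 all mutant arrays lay below all controls. Cdca3, a mitotic entry factor that promotes loss of the Wee1 kinase, had the lowest difference of the group (-0.23, SE 0.14, limma adjusted p = 0.702), from 6.69, 7.0 and 6.93 in controls to 6.92, 6.46, 6.84 and 6.34 in mutants. Cks2, a small Cdk-binding subunit, differed by -0.078. Ccnb2, cyclin B2, was not above background and has no tested value.

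Among the spindle kinases, Aurka and Ttk lay below 0 and Plk1 above it. Aurka, Aurora A, which matures centrosomes, was 7.45, 7.18 and 7.32 on control arrays and 7.22, 7.01, 7.16 and 6.76 on mutant arrays. Mutant replicates 2 to 4 were below all controls and mutant replicate 1 was just above control replicate 2. The Aurka difference of -0.26 (SE 0.13) had an unadjusted p of 0.0496 and a limma adjusted p of 0.622. Plk1, Polo-like kinase 1, was 8.23, 8.43 and 8.31 against 8.50, 8.32, 8.38 and 8.20, with groups that overlapped and a difference of 0.042 (95% interval -0.20 to 0.28, limma adjusted p = 0.952). Ttk, the Mps1 checkpoint kinase, differed by -0.15. Nek2, a centrosome kinase, was not detected.

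All 5 tested kinetochore and checkpoint genes lay below 0, by a median of -0.078, with 0 at an unadjusted p under 0.05. Bub1b, the checkpoint protein BubR1, had the lowest difference (-0.22, SE 0.12, limma adjusted p = 0.662). It stood at 5.76, 5.64 and 5.75 in controls and at 5.32, 5.61, 5.71 and 5.42 in mutants, where mutant replicate 3 was the exception to lower values. Bub1, the kinase partner of the checkpoint, was 4.76, 4.69 and 4.75 against 4.50, 4.66, 5.05 and 4.75, and its difference of -0.031 (limma adjusted p = 0.966) was the closest to 0 of all 32 members. Ndc80, the microtubule-binding core of the kinetochore, was 5.59, 5.47 and 5.29 in controls and 5.72, 5.31, 5.37 and 4.86 in mutants. Its probes differed by -0.078 and, on a probe detected on 3 arrays, 0.018, and mutant replicate 4 alone stood below all controls on the brighter one. Mad2l1, the checkpoint inhibitor Mad2, and Cenpa, the centromeric histone, differed by -0.055 and -0.084.

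The chromosomal passenger complex corrects faulty attachments and later directs cytokinesis. Birc5, survivin, was 7.38, 7.48 and 7.42 on control arrays and 7.21, 6.87, 7.37 and 7.14 on mutant arrays. The groups did not overlap, although mutant replicate 3 and control replicate 1 nearly met. The Birc5 difference was -0.30 (SE 0.12, unadjusted p = 0.0244, limma adjusted p = 0.554), and its other 2 tested probes differed by -0.20 and -0.13. Incenp, the scaffold of the complex, differed by -0.18. Cdca8, borealin, was 5.76, 6.07 and 5.83 against 5.91, 5.76, 5.96 and 5.40 and differed by -0.11 (limma adjusted p = 0.864). Aurkb, the kinase of the complex, had no row.

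The 5 tested kinesins had a median difference of -0.10, with 3 below 0. Kif2c, which takes apart microtubule ends at centromeres, stood at 4.94, 5.46 and 5.52 on control arrays and at 4.99, 4.79, 4.80 and 4.35 on mutant arrays. Mutant replicates 2, 3 and 4 were below every control, and mutant replicate 1 was above control replicate 1. The Kif2c difference of -0.57 (SE 0.16, 95% interval -0.89 to -0.24), a fold of 0.675, had an unadjusted p of 0.00167 and a limma adjusted p of 0.375. The probe was detected on 6 of the 7 arrays, and the size depended on the background step: the difference was -0.20 without background correction, -0.28 with an offset of 50 and -0.20 in the series matrix values. Kif2c passed the test without control replicate 1 (difference -0.76, limma adjusted p = 0.0442), the control array that lay below mutant replicate 1. On the first chip by itself the Kif2c difference was -0.31 (limma adjusted p = 0.783), and on the second chip, with 1 control array, -0.95. Kif11, the motor Eg5 that pushes spindle poles apart, was 6.77, 6.66 and 6.76 against 6.36, 6.53, 6.62 and 5.95, with no overlap. Its difference was -0.35 (SE 0.14, unadjusted p = 0.0209, limma adjusted p = 0.544), or -0.22 without mutant replicate 4 and -0.21 without background correction.

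Cenpe, the kinetochore motor that moves chromosomes to the metaphase plate, was 4.52, 4.31 and 4.19 in controls and 4.52, 4.54, 4.50 and 4.22 in mutants, with a difference of 0.14 (SE 0.11, limma adjusted p = 0.793). Its probe was detected on 4 of the 7 arrays, so these levels lie close to background. Control replicate 1 and mutant replicates 1 to 3 lay together, above the other 3 arrays. Kif22, a chromosome-arm motor, differed by 0.039, and Kif23, a motor of the central spindle, by -0.10.

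The 4 spindle assembly genes lay below 0 by a median of -0.10, with 0 at an unadjusted p under 0.05. Hmmr, a microtubule-associated protein of spindle poles, was 5.25, 5.49 and 5.34 in controls and 5.45, 5.21, 5.28 and 4.79 in mutants, a difference of -0.15 (limma adjusted p = 0.818). Nusap1, which bundles spindle microtubules, was 5.97, 6.09 and 6.16 against 6.03, 5.89, 6.45 and 5.76. Mutant replicate 3 was its highest array and mutant replicate 4 its lowest. The Nusap1 probes differed by -0.067, -0.055 and -0.31, the last and dimmest with an unadjusted p of 0.0243. Spag5, the spindle protein astrin, was 5.62, 5.58 and 5.87 against 5.61, 5.56, 5.81 and 5.34, and its 2 tested probes differed by -0.12 and 0.039. Tpx2, the activator of Aurora A, differed by -0.084.

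The 3 tested cytokinesis genes had a median difference of -0.33 and each an unadjusted p under 0.05, but 0 were called. Without mutant replicate 4 only 2 of all 32 members were lower at such a p, beside 3.58% of all tested genes. Anln, anillin, the scaffold of the contractile ring, was 6.06, 6.0 and 6.16 on control arrays and 5.70, 5.58, 6.06 and 5.61 on mutant arrays. Mutant replicates 1, 2 and 4 were below all controls and replicate 3 was among them. The Anln difference was -0.36 (SE 0.12, unadjusted p = 0.00751, limma adjusted p = 0.458), while its second tested probe differed by 0.15 and the mean of both probes by -0.11 (limma adjusted p = 0.842). Without background correction the Anln difference was -0.18. Ect2, the exchange factor that activates RhoA at the division plane, was 6.30, 6.61 and 6.55 against 6.23, 6.24, 6.40 and 5.70. Its difference was -0.33 (SE 0.15, unadjusted p = 0.0354, limma adjusted p = 0.585), and mutant replicate 3 again lay among the controls. The Ect2 difference was -0.20 without mutant replicate 4 and -0.18 without background correction. Prc1, which crosslinks microtubules of the central spindle, was 7.29, 7.47 and 7.38 against 6.94, 7.01, 7.49 and 7.03. Mutant replicates 1, 2 and 4 were below all controls and mutant replicate 3 was the highest of the 7. The Prc1 difference was -0.29 (SE 0.13, unadjusted p = 0.0324, limma adjusted p = 0.581).

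The last group separates chromosomes. Cdc20, the activator of the anaphase-promoting complex, was 7.23, 7.43 and 7.17 in controls and 7.16, 6.94, 7.15 and 6.81 in mutants on its brightest probe, without overlap. That probe differed by -0.25 (SE 0.12, limma adjusted p = 0.634), but the other 3 differed by 0.048, 0.077 and -0.18, so the probes of Cdc20 did not share a sign. Top2a, the topoisomerase that untangles sister chromatids, was 6.20, 6.58 and 6.45 against 6.49, 6.36, 6.18 and 5.97, a difference of -0.13 (limma adjusted p = 0.839). For Top2a, 2 mutant arrays lay within the control range and 2 below it. Ube2c, a ubiquitin-conjugating enzyme of the same complex, differed by -0.18, and Pttg1, securin, was not tested.

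**Figure D3:**
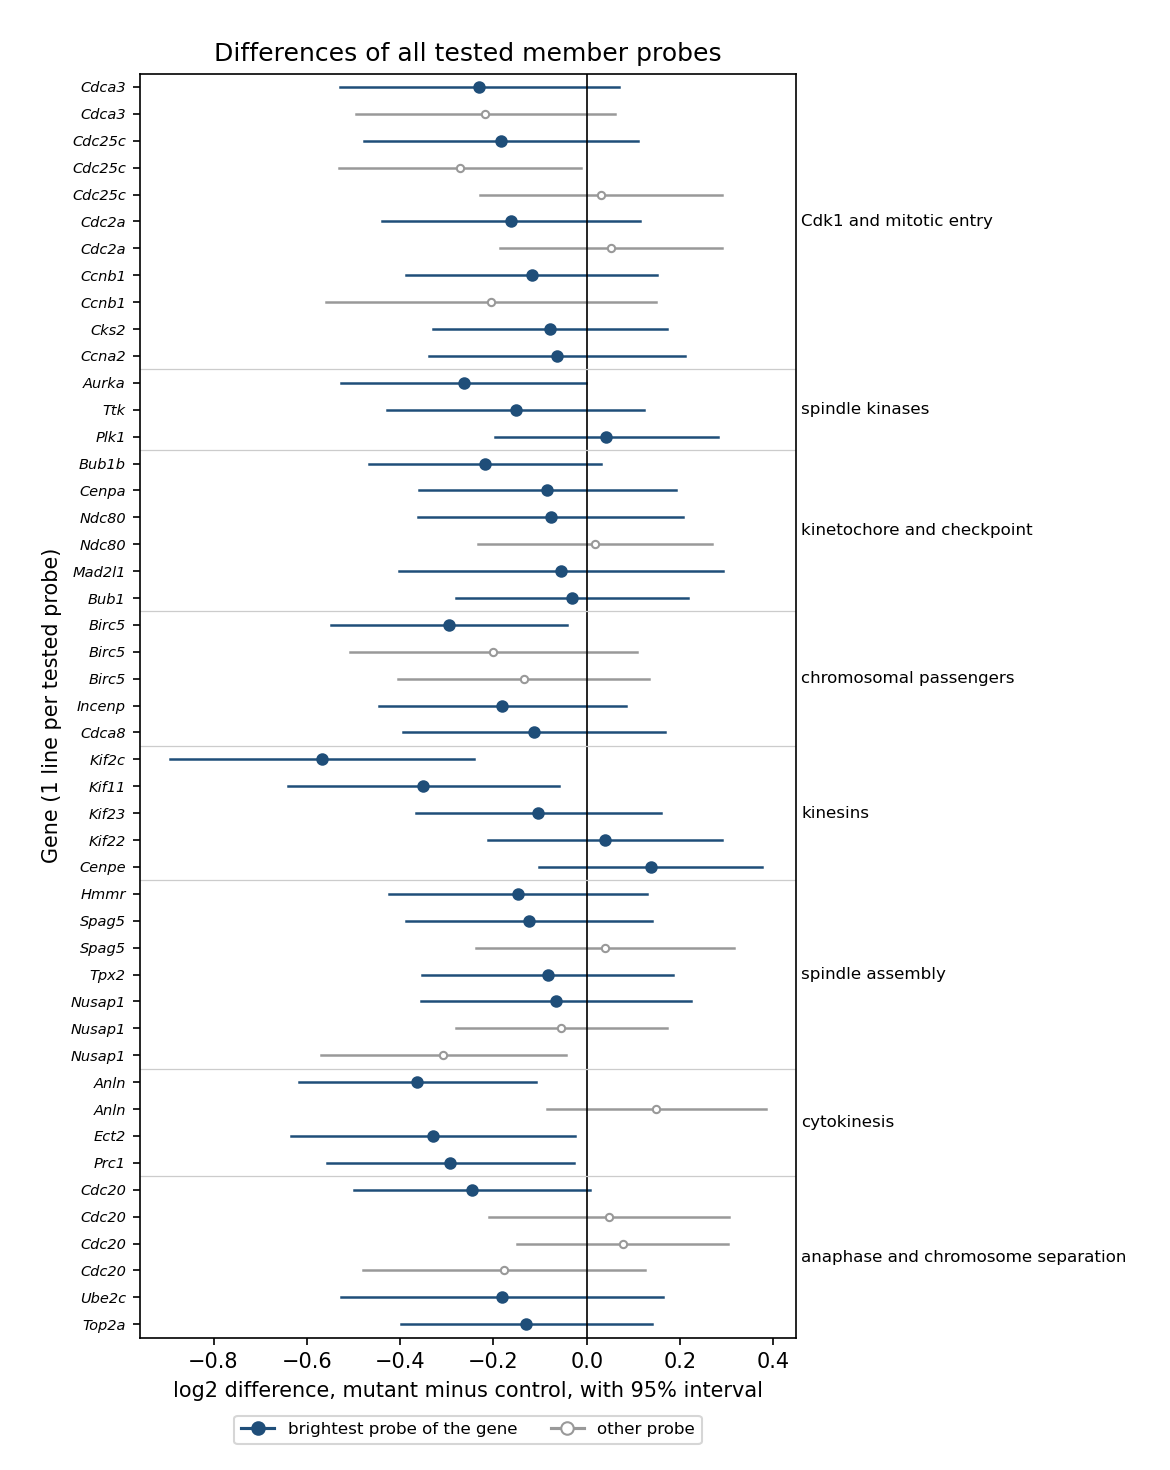
Mutant minus control difference on the log2 scale (x axis) with its 95% interval for each of the 47 tested member probes (y axis, grouped by role). Filled blue points are the brightest probe of a gene and open grey points its other probes; most blue points lie left of 0, the lowest is Kif2c at -0.57, and most intervals cross 0.

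More than 1 probe was tested for 10 members, and in 6 of them, Cdc2a, Cdc25c, Ndc80, Spag5, Anln and Cdc20, the probes lay on both sides of 0. The probe above 0 was detected on 3 arrays for Ndc80 and on 4 for Spag5, close to background, and on all 7 arrays for the other 4 genes. Positions of the probes within the transcripts were not analysed here.

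Differences were also taken within each chip. The median over the members was -0.059 on the first chip, with 24 of 32 below 0, and -0.27 on the second, with 28 below 0. On both chips, 21 members were below 0, against 27.4% of all tested genes. Cytokinesis genes (-0.39 and -0.32) and chromosomal passengers (-0.21 and -0.16) had like medians on the 2 chips. The Cdk1 group (-0.032 and -0.31), spindle assembly (-0.025 and -0.30) and anaphase genes (-0.048 and -0.37) were near 0 on the first chip. The difference between the chips was not tested, and on the second chip it rests on control replicate 3 and on mutant replicate 4 in particular.

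**Figure D4:**
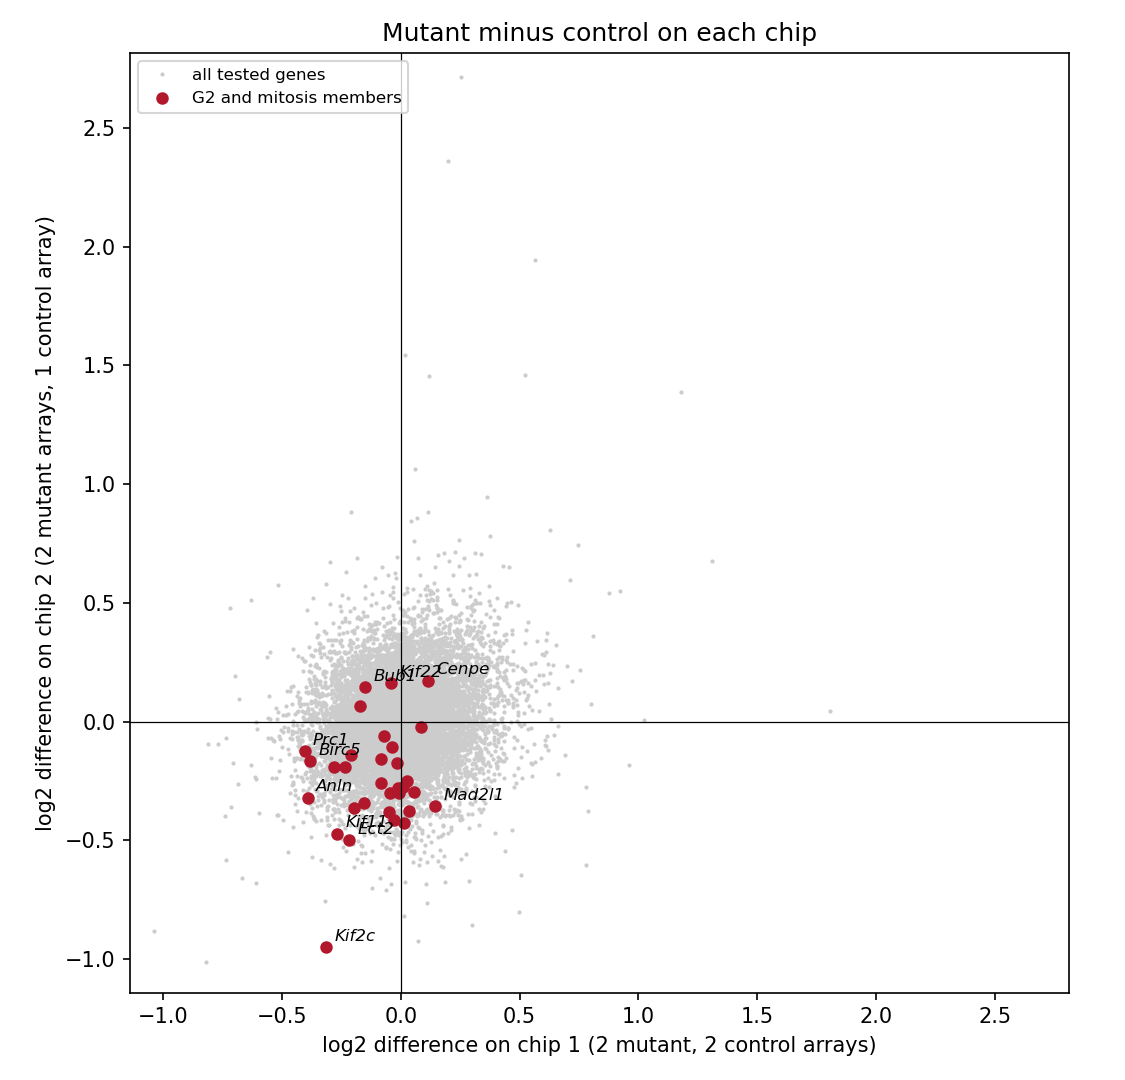
Mutant minus control difference of each tested gene on the first chip (x axis, log2) and on the second chip (y axis, log2). Grey points are all 10484 tested genes and red points the 32 members, of which 21 lie below 0 on both axes; Kif2c, at -0.31 and -0.95, lies apart from the others.

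Other genes of the pathway were counted for comparison. Of 81 further G2 and mitosis genes, 60 had a row and 56 were tested. Of these, 41 were below 0, against 50% of all tested genes, with a median of -0.094. In limma's test 0 were called, where 0.0382% of all tested genes were called in each direction. An unadjusted p under 0.05 was found for 7 lower genes and 1 higher gene, against 3.71% and 4.51% of all tested genes. The 4 of smallest p were Nek6, a mitotic kinase, at 0.51 (limma adjusted p = 0.375), Kif15, a spindle motor, at -0.38, Spc25, a partner of Ndc80, at -0.29, and Ncaph, a condensin subunit, at -0.28. These are the values of the brightest probes. The other tested probes of Kif15 differed by -0.17 and -0.0005, and the other of Spc25 by -0.24. Foxm1, which drives many of the members, had 2 tested probes at -0.057 and -0.060, and Mybl2, the gene of B-Myb, differed by -0.12 on its brightest probe and by -0.076 and 0.16 on the other 2. The 46 tested DNA replication and S phase genes had a median of -0.025, with 28 below 0 beside 50% of all tested genes. The 16 tested genes of MuvB, DREAM and E2F had a median of -0.017. On mutant replicate 4 the S phase genes lay at -0.056 relative to the control of that chip, the members at -0.46 and the further G2 and mitosis genes at -0.25. Cdkn1a, the Cdk inhibitor p21, lay higher in all mutant than in all control arrays on 2 probes, by 0.52 and 0.51 (limma adjusted p = 0.161 and 0.175), while another, dimmer tested probe differed by 0.031 with groups that overlapped. Mki67 had no row.

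**Figure D5:**
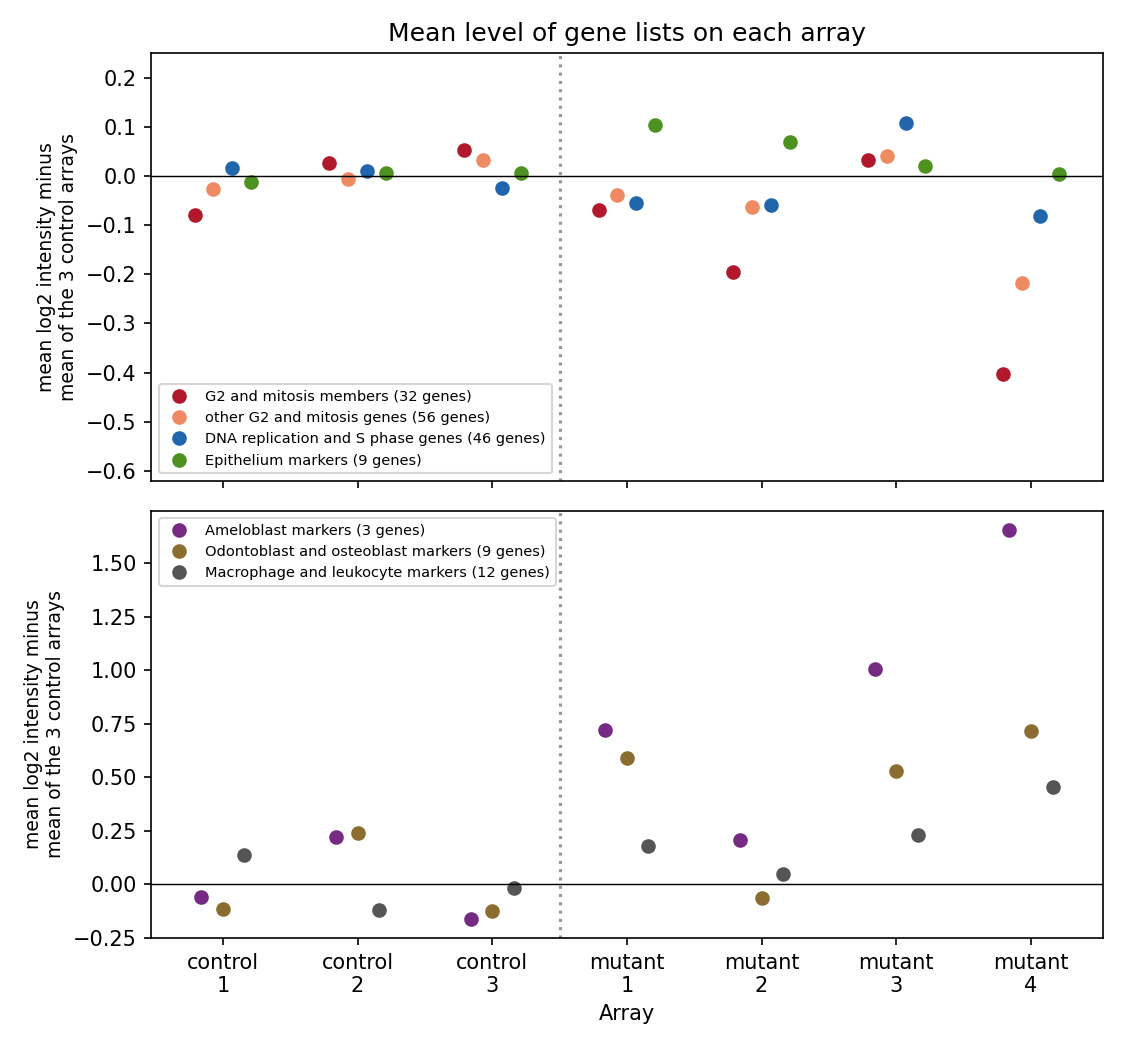
Mean log2 intensity of each gene list on each array (x axis), minus the list's mean over the 3 control arrays (y axis, log2; the panels have different scales). In the upper panel the G2 and mitosis members are lowest on mutant replicate 4, and in the lower panel the ameloblast, odontoblast and macrophage markers are highest on that array.

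In the authors' deposited table, whose values had been adjusted for the chip, 49 probes of 33 members were listed and 39 had a lower mutant mean, against 49.4% of all listed probes. The authors' deposited table gave 10 member probes a p-value under 0.05 in the lower direction and 0 in the higher, against 5.3% and 5.61% of its probes, and 0 had a q-value under 0.05 (0.0349% of all probes lower, 0.0408% higher). In the authors' deposited table the q-value of Kif2c was 0.0691 and that of Anln 0.158.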

How the data were processed

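Illumina arrays of 3 control and 4 mutant samples were analysed. Raw probe intensity was deposited (not normalised, per the file headers), each value with a deposited detection p-value and a number of beads. The authors also deposited log2 values, which the name of their table describes as ComBat adjusted, with a p-value and q-value per probe. The bead software and the normalization before ComBat are not given in the sources used here. Another 7 columns, the bead standard errors, were not used.

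Intensities were background corrected in R 4.3.3 with limma 3.58.1 (nec, which infers the negative controls from detection p-values; offset 16, which compresses differences of dim probes), quantile normalised and taken to log2. Probes with a detection p under 0.05 on at least 3 arrays were fitted by lmFit and eBayes to the 7 arrays, on genotype plus chip (4 residual and 15.4 prior degrees of freedom). P-values are two-sided, with Benjamini-Hochberg adjustment over 14666 probes and a threshold of 0.05. The labels' array identifiers give the chip. A gene is represented by its tested probe of highest mean. The code was tested on simulated data.

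The members, lists and tests were chosen with earlier results of these data known. Named with values are a fixed set of 12 members, those with an unadjusted p under 0.05, the extremes of each subgroup and those whose probes differ in sign, the 4 further G2 and mitosis genes of smallest p, Foxm1, Mybl2, the targeted genes and Cdkn1a. Alternatives changed the detection filter, background correction, offset, scaling, chip term, array weights, eBayes options, probe rule, replicate block and the arrays included.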

Additional observations from a re-analysis of the deposited data

Results flagged for a closer look

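In 3 of 41 sets of 4 mutant values tested (the 32 members, their mean and the means of the 8 subgroups), 1 sample lay far from the others. Chance alone flags about 1 in 20 independent groups of normally distributed values. These sets share arrays and genes and span both chips, so that rate is only a rough guide here. Ccnb1 was 5.42 on mutant replicate 4 on its brighter probe, against 5.87 to 5.95 on the other mutant arrays. Cenpe was 4.22 on mutant replicate 4, against 4.50 to 4.54 on the others. Prc1 was 7.49 on mutant replicate 3, against 6.94 to 7.03 on the others. The first 2 belong to the array that was lowest for 23 of the 32 members (15.3% of all genes). The last belongs to an array that was lowest for 0 members (10.6% of all genes), as was control replicate 2.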

How the results depend on the processing

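The number of members called was 0 in every alternative except 2, the second chip alone (1 control array, assumed to vary like the others) and without control replicate 1, where 1 member, Kif2c, was called lower. Leaving out 1 array at a time gave 0 to 1 members called lower and 2 to 10 lower at an unadjusted p under 0.05, beside 3% to 3.92% of all genes. Those fits had 23 to 30 members below 0, medians of -0.20 to -0.049, 0 to 5 probes called lower and 0 to 9 called higher over the array. Leaving out control replicate 3 leaves no control on the second chip and gives the values of the first. Members lower at an unadjusted p under 0.05 numbered 3 of 35 without the detection filter (3.89% of all genes), 1 of 32 with median scaling (0.954%) and 3 of 32 on the first chip alone (3.2%). The member median was -0.063 without background correction, -0.076 with offset 50 and -0.062 in the series matrix values. With median scaling all genes shifted by a median of 0.074, 30.1% of them lay below 0, and 21 members did. Over the array, 0 probes were called in either direction without the detection filter, without background correction, with offset 50 and in the series matrix values (1909, 1274, 1284 and 1750 had an unadjusted p under 0.05). Probes called lower numbered 2 with the stricter detection filter, 0 with median scaling, 0 with the chip as a random block and 0 on the first chip. Probes called higher numbered 9 with median scaling, 3 without the chip term, 1 with the random block, 11 on the second chip and 1 on the first. One alternative, without mutant replicate 4 and without the chip term, was chosen after seeing the data. It gave 2 members lower at an unadjusted p under 0.05 (3.29% of all genes) and 2 probes lower and 3 higher over the array.

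Of the named members, signs changed for Ccna2 (0.052), Bub1 (0.0084) and Nusap1 (0.036) with median scaling, Bub1 without the chip term (0.0025), with the random block (0.0056), with array weights (0.026) and on the second chip (0.15), Plk1 on the second chip (-0.020), and Cdc2a (0.012) and Top2a (0.034) on the first. Leaving out 1 array gave ranges across 0 of -0.16 to 0.043 for Ccna2, -0.15 to 0.038 for Bub1, -0.18 to 0.047 for Nusap1, -0.20 to 0.017 for Ndc80, -0.016 to 0.084 for Plk1, -0.26 to 0.012 for Cdc2a and -0.27 to 0.034 for Top2a. The cause of these changes was not tested.

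With the replicate block, which pairs arrays of the same number, the median was -0.049 and 23 members lay below 0 (50.6% of all genes). Of the members, 3 were lower at an unadjusted p under 0.05 (4.21% of all genes) and 0 were called, with 2 probes lower over the array. Ccna2 (0.043), Ndc80 (0.017) and Nusap1 (0.047) then changed sign. Mutant replicate 4 has no control of its number and adds nothing to that fit. Same-numbered arrays correlated in their deviations at -0.019, 0.155 and 0.153, and pairs of different number at -0.142 to 0.105. These few values cannot tell whether arrays of the same number were paired. The offset compresses the differences of dim probes such as Cenpe and Bub1. Their bead counts, 34 to 53 for Cenpe and 23 to 40 for Bub1, lay within the 18 to 55 of all tested member probes. The part of bead number was not tested.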
